A study of Mus musculus with 16 samples.

Results

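β-catenin (CTNNB1) and 9 genes tied to it in adrenocortical tumours were followed in human tumour xenografts grown in mice: AXIN2, LEF1, LGR5, NKD1, RNF43, WNT4, SFRP1, AFF3 and DKK3. They were chosen by their human RefSeq identifiers, given with each gene in what follows, and not by any measured value. All 10 identifiers were on the array, out of 29094 in all. They were read by 12 probes, a pair each for AXIN2 and DKK3 and 1 for each of the other 8, and all 10 were among the 20216 transcripts that were bright enough to test. The tumours came from H295R, an established human adrenocortical carcinoma line that makes steroid hormones and carries an activating CTNNB1 mutation. They were grown in male SCID mice. These have no working T or B lymphocytes but keep other host cells, so a tumour also holds mouse stroma and vessels. The array was designed for human transcripts and the levels are read as those of the graft; how far mouse RNA bound to its probes was not tested.

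In total 43 mice were dosed by mouth for 28 days in 4 groups. The combined group received mitotane and 9-cis retinoic acid (9-cisRA) together, the mitotane group received mitotane alone, the 9-cisRA group received 9-cisRA alone, and the control group received corn oil. Mitotane is toxic to the adrenal cortex and is the standard drug against adrenocortical carcinoma; 9-cisRA, a retinoid, is a ligand of the nuclear receptors RAR and RXR. All groups share the H295R graft, with its mutant CTNNB1, and the SCID host. Doses, and whether an array held 1 tumour or a pool, were not given in the sources used here, so p-values measure the spread between arrays. Of 16 samples, 15 had a scanner file and entered the main results, namely combined replicates 1, 2 and 4 and replicates 1 to 4 of each other group. Each was a human-design Agilent array hybridised with Cy3-labelled RNA. Every slide held an array of each group, and the replicate number is the slide. The 9-cisRA samples always took array position 4, so that position and 9-cisRA cannot be told apart. The scanned combined arrays took positions 1 and 2, and the controls position 3 except for replicate 4 at position 2. Combined and control arrays thus differ in position too, and without control replicate 4 they share none, so group and position cannot be told apart there either. Mitotane arrays took positions 1 to 3.

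β-catenin is the transcriptional arm of Wnt signalling. Without a Wnt signal, a destruction complex built on AXIN and APC proteins marks it for degradation; with a Wnt signal, or with mutations of the kind H295R carries, it accumulates, enters the nucleus and activates genes with DNA-binding partners of the TCF/LEF family. Several of the activated genes are brakes on the pathway, among them AXIN2, NKD1 and RNF43. In the adrenal gland the pathway is active in the outer cortex, where it supports the aldosterone-producing zone, and its activation is frequent in adrenocortical carcinoma.

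Levels are log2 signals after subtraction of the 75th percentile that each array's own non-control spots gave. A level of 0 lies at that percentile and a difference of 1 is a doubling of signal. Levels are compared between arrays for the same probe and never between probes. Of the 12 probes, 11 stood well above background on all 15 arrays and the remaining one, the dimmer DKK3 probe, on 13. None was saturated. In bulk tumour RNA, fewer cells that make a transcript and less of it per cell cannot be told apart.

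A pair of arrays stood apart and bear on most of what follows. Control replicate 4 had a 75th percentile of 224.2 intensity units, against 551.5 to 1061 on the other 14 arrays, and its median correlation with the other arrays was 0.874, against 0.977 to 0.990. It had 61.6% of probes well above background. Combined replicate 4, on the same slide, had 57.9%, and the other 13 arrays had 69.4% to 75.9%. Values without these arrays are given beside the results that they move. Markers of other cell types were not described, because no table used here names the array's other human transcripts.

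No transcript passed an adjusted p of 0.05 (limma's moderated test, Benjamini-Hochberg over 20216 transcripts) in any of the 7 comparisons made, so the background rate of calls was 0% and none of the 10 genes was called. At an unadjusted p under 0.05 the counts of genes were 2 of 10 for combined against control (RNF43 and WNT4; 13.8% of all tested transcripts), 1 for mitotane against control (WNT4; 6.04%) and 1 for 9-cisRA against control (RNF43; 3.51%). All of these were higher in the treated tumours. Without control replicate 4 the counts were 1 for combined against control (WNT4; 18.3%) and 0 for mitotane (7.68%) and 9-cisRA (4.34%). With 10 genes, counts of 1 or 2 are too close to these backgrounds to be read as results about the genes.

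**Figure D1:**
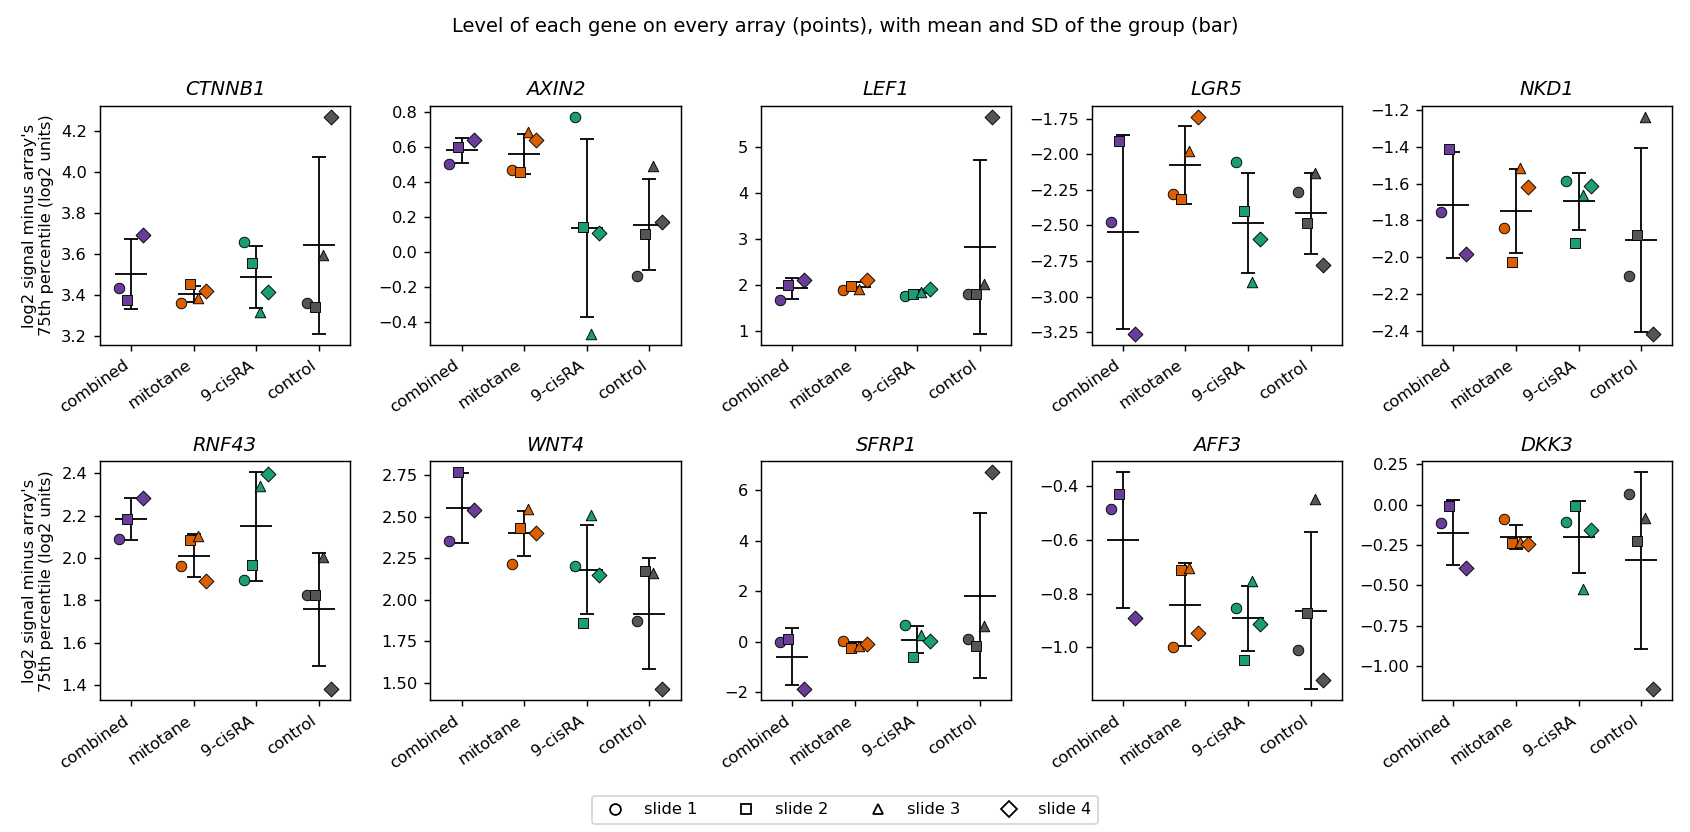
Level of each of the 10 genes on every array (vertical axes, log2 level above or below the array's 75th percentile), with the combined, mitotane, 9-cisRA and control arrays from left to right, a bar at each group's mean ± SD and a symbol for each slide. CTNNB1 is nearly level apart from control replicate 4, and LEF1 and SFRP1 reach 5.67 and 6.72 on that array. All combined arrays lie above all control arrays for AXIN2, RNF43 and WNT4, as they do for 12.7% of all transcripts.

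CTNNB1 (NM_001904) itself was among the steadiest transcripts once control replicate 4 was left out. Over all 15 arrays its SD was 0.24, against a 25th percentile of 0.25 and a median of 0.32 over all tested transcripts. Its level was 3.43, 3.38 and 3.70 in combined tumours (replicates 1, 2 and 4). It was 3.36, 3.46, 3.39 and 3.42 in mitotane tumours, 3.66, 3.56, 3.32 and 3.42 in 9-cisRA tumours, and 3.36, 3.34, 3.60 and 4.27 in control tumours (replicates 1 to 4). The groups overlapped, and the only array outside the common band was control replicate 4. Over the other 14 arrays the lowest and the highest level were 1.30-fold apart and the SD was 0.12, against a median of 0.24 over all tested transcripts; 5.81% of transcripts had a lower SD. The probe was printed 10 times on each array. After up to 3 outlier spots per array were left out, the SD among the copies was 0.04 to 0.09 on the log2 scale. The level is the mean of these copies, and how far that averaging lowered the SD between arrays was not tested.

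The group means of CTNNB1 were 3.50 ± 0.17 in combined tumours (SD, n = 3), 3.41 ± 0.04 in mitotane tumours, 3.49 ± 0.15 in 9-cisRA tumours and 3.64 ± 0.43 in control tumours (n = 4 each). No neighbours in the order control, combined, 9-cisRA, mitotane differed beyond their spread. Combined minus control was −0.14 ± 0.20 (log2 difference ± SE; limma adjusted p = 0.748), mitotane minus control −0.24 ± 0.18 (adjusted p = 0.713) and 9-cisRA minus control −0.16 ± 0.18 (adjusted p = 0.756). Without control replicate 4 the control mean was 3.44 ± 0.14 (n = 3) and these differences were 0.07, −0.03 and 0.05. For combined tumours the 95% interval was then −0.20 to 0.33, which leaves room for a difference of up to 0.33 on the log2 scale.

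LEF1 (NM_016269), a member of the TCF/LEF family through which β-catenin reaches DNA, behaved in the same way. Levels were 1.66, 1.99 and 2.11 in combined tumours, 1.88, 1.96, 1.90 and 2.11 in mitotane tumours, 1.76, 1.81, 1.84 and 1.91 in 9-cisRA tumours and 1.80, 1.80, 2.02 and 5.67 in control tumours. The groups overlapped, and 14 of 15 arrays lay within 1.36-fold of each other. Control replicate 4 lay 3.79 above the mean of the other controls, 13.9-fold. Combined, mitotane and 9-cisRA minus control came to −0.90 ± 0.68, −0.86 ± 0.63 and −0.99 ± 0.63 with that array, and to 0.04 ± 0.13, 0.09 ± 0.12 and −0.05 ± 0.12 without it. The negative differences therefore rested on 1 control array. Over the 14 other arrays LEF1 had an SD of 0.13, lower than that of all but 8.22% of transcripts.

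Among the feedback brakes, AXIN2 and RNF43 separated the 3 scanned combined arrays from all controls, and NKD1 did not. Of all tested transcripts, 12.7% were higher in combined tumours in this way. AXIN2 (NM_004655) is a scaffold of the destruction complex and a widely used readout of β-catenin activity. Its brighter probe read 0.50, 0.60 and 0.64 in combined tumours, 0.47, 0.46, 0.69 and 0.64 in mitotane tumours, 0.77, 0.14, −0.47 and 0.11 in 9-cisRA tumours and −0.14, 0.11, 0.49 and 0.17 in control tumours. All 3 combined arrays lay above all 4 controls, by a margin of 0.01 over control replicate 3. Mitotane arrays overlapped that control, and 9-cisRA arrays spanned the whole range seen, from the lowest to the highest of the 15 arrays. Group means were 0.58 ± 0.07 in combined tumours (n = 3), 0.56 ± 0.12 in mitotane tumours, 0.14 ± 0.51 in 9-cisRA tumours and 0.16 ± 0.26 in control tumours (n = 4 each).

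AXIN2 was 1.34-fold higher in combined tumours than in controls (log2 difference 0.42 ± 0.23, 95% interval −0.07 to 0.92, limma adjusted p = 0.432). For mitotane minus control the difference was 0.41 ± 0.21 (adjusted p = 0.713) and for 9-cisRA minus control −0.02 ± 0.21 (adjusted p = 0.973). These contrasts share the control arrays. Within slides, combined minus control was 0.64, 0.50 and 0.47 and mitotane minus control 0.60, 0.36, 0.19 and 0.47, positive on every slide, while 9-cisRA minus control was 0.91, 0.04, −0.96 and −0.06. For combined tumours the signs follow from the lack of overlap with the controls and add no support to it. Leaving out control replicate 4, which lay inside the range of the other controls for this gene, gave 0.43 for combined tumours. In the authors' deposited value table, where arrays are scaled otherwise, AXIN2 in combined replicate 1 read 0.0024 and in control replicate 3 0.027, so the combined and control arrays overlapped there.

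The second AXIN2 probe did not show this order. It read −0.03, 0.15 and −0.25 in combined tumours, 0.05, 0.12, −0.02 and 0.14 in mitotane tumours, 0.34, 0.09, 0.14 and 0.27 in 9-cisRA tumours and −0.23, 0.07, 0.10 and −0.34 in control tumours. Here the 9-cisRA tumours had the highest mean and the combined tumours overlapped the controls. In a fit over all 23788 probes bright enough to test, combined minus control was 0.06 (adjusted p = 0.869), mitotane minus control 0.17 (adjusted p = 0.712) and 9-cisRA minus control 0.31 (adjusted p = 0.755). Across the 15 arrays the 2 AXIN2 probes correlated at r = 0.14, and at 0.08 without control replicate 4, a description over arrays that share slides. The difference was thus seen with 1 of 2 probes, and which of them follows the AXIN2 transcript better was not tested.

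**Figure D2:**
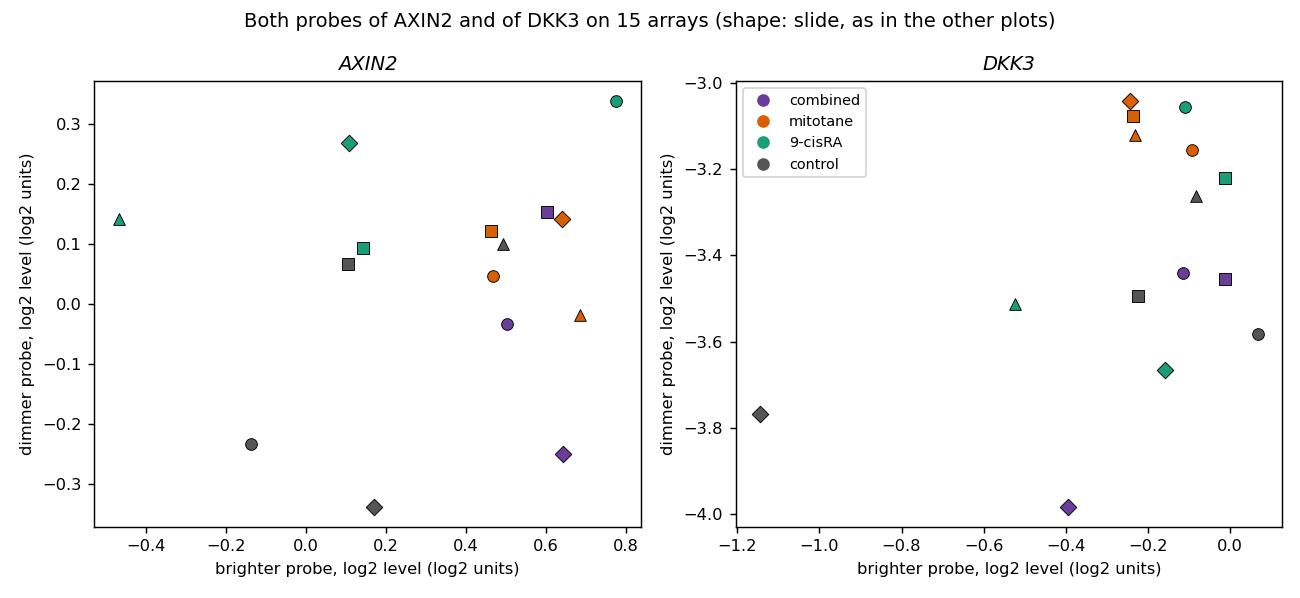
Level by the brighter probe (horizontal axis) against level by the dimmer probe (vertical axis) for AXIN2 and DKK3, 1 point per array, both axes as log2 level above or below the array's 75th percentile. The points of AXIN2 show little common order (r = 0.14 over 15 arrays, 0.08 without control replicate 4), and the correlation for DKK3 is 0.43 with that array and 0.24 without it.

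RNF43 (NM_017763), a membrane ubiquitin ligase that removes Frizzled receptors from the cell surface, read 2.09, 2.19 and 2.28 in combined tumours, 1.96, 2.08, 2.10 and 1.89 in mitotane tumours, 1.90, 1.97, 2.34 and 2.40 in 9-cisRA tumours and 1.82, 1.83, 2.00 and 1.38 in control tumours. The combined arrays lay above every control (as for 12.7% of all transcripts), whereas mitotane and 9-cisRA arrays overlapped control replicate 3. Means were 2.19 ± 0.10 in combined tumours (n = 3), 2.01 ± 0.10 in mitotane tumours, 2.15 ± 0.26 in 9-cisRA tumours and 1.76 ± 0.27 in control tumours (n = 4 each). RNF43 was 1.35-fold higher in combined tumours (0.43 ± 0.17, 95% interval 0.06 to 0.80, limma adjusted p = 0.311) and 1.31-fold higher in 9-cisRA tumours (0.39 ± 0.16, 95% interval 0.05 to 0.74, adjusted p = 0.744). Mitotane minus control was 0.25 ± 0.16 (adjusted p = 0.713). Neither result passed the correction. In the authors' deposited value table, which also holds combined replicate 3, RNF43 on that array lay inside the control range.

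Part of the RNF43 difference came with control replicate 4, the lowest of the 15 arrays for this gene. Without it the control mean was 1.88 ± 0.10 (n = 3), and the differences were 0.30 ± 0.14 in combined tumours (adjusted p = 0.278), 0.13 in mitotane tumours and 0.26 in 9-cisRA tumours (adjusted p = 0.980). Within slides, all 3 combined and all 4 9-cisRA differences from control were positive, at 0.26, 0.36 and 0.90 and at 0.07, 0.14, 0.34 and 1.02, and on slide 4 they were highest in both cases. The combined signs follow from the lack of overlap with the controls and add no support to it. On slide 4 the median over all tested transcripts was itself shifted, by 0.29 for combined minus control, 0.33 for mitotane minus control and 0.30 for 9-cisRA minus control. On the other slides that median was between −0.03 and 0.12.

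NKD1 (NM_033119), a Dishevelled-binding inhibitor of Wnt signalling, read −1.76, −1.41 and −1.98 in combined tumours, −1.84, −2.02, −1.52 and −1.62 in mitotane tumours, −1.58, −1.92, −1.66 and −1.62 in 9-cisRA tumours and −2.10, −1.88, −1.24 and −2.42 in control tumours. The controls alone spanned the lowest and the highest of the 15 arrays, so every treated group lay inside their range. Combined, mitotane and 9-cisRA minus control were 0.19, 0.16 and 0.21, with limma adjusted p-values of 0.722, 0.798 and 0.746. Without control replicate 4, the lowest array, they were 0.02, −0.01 and 0.04.

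LGR5 (NM_003667), a receptor for R-spondins that keeps Frizzled at the surface and so works against RNF43, had the widest spread after SFRP1, with an SD of 0.40 over the 14 arrays without control replicate 4. It read −2.47, −1.91 and −3.26 in combined tumours, −2.28, −2.31, −1.98 and −1.74 in mitotane tumours, −2.06, −2.40, −2.89 and −2.59 in 9-cisRA tumours and −2.26, −2.48, −2.13 and −2.78 in control tumours. All groups overlapped, with means of −2.55 ± 0.68 in combined tumours (n = 3), −2.08 ± 0.27 in mitotane tumours, −2.48 ± 0.35 in 9-cisRA tumours and −2.41 ± 0.28 in control tumours (n = 4 each). Mitotane minus control was 0.34 ± 0.27 (limma adjusted p = 0.714). The combined mean rested on replicate 4, which lay 1.07 below the mean of the other combined arrays; without it combined minus control was 0.22, against −0.13 with it.

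**Figure D3:**
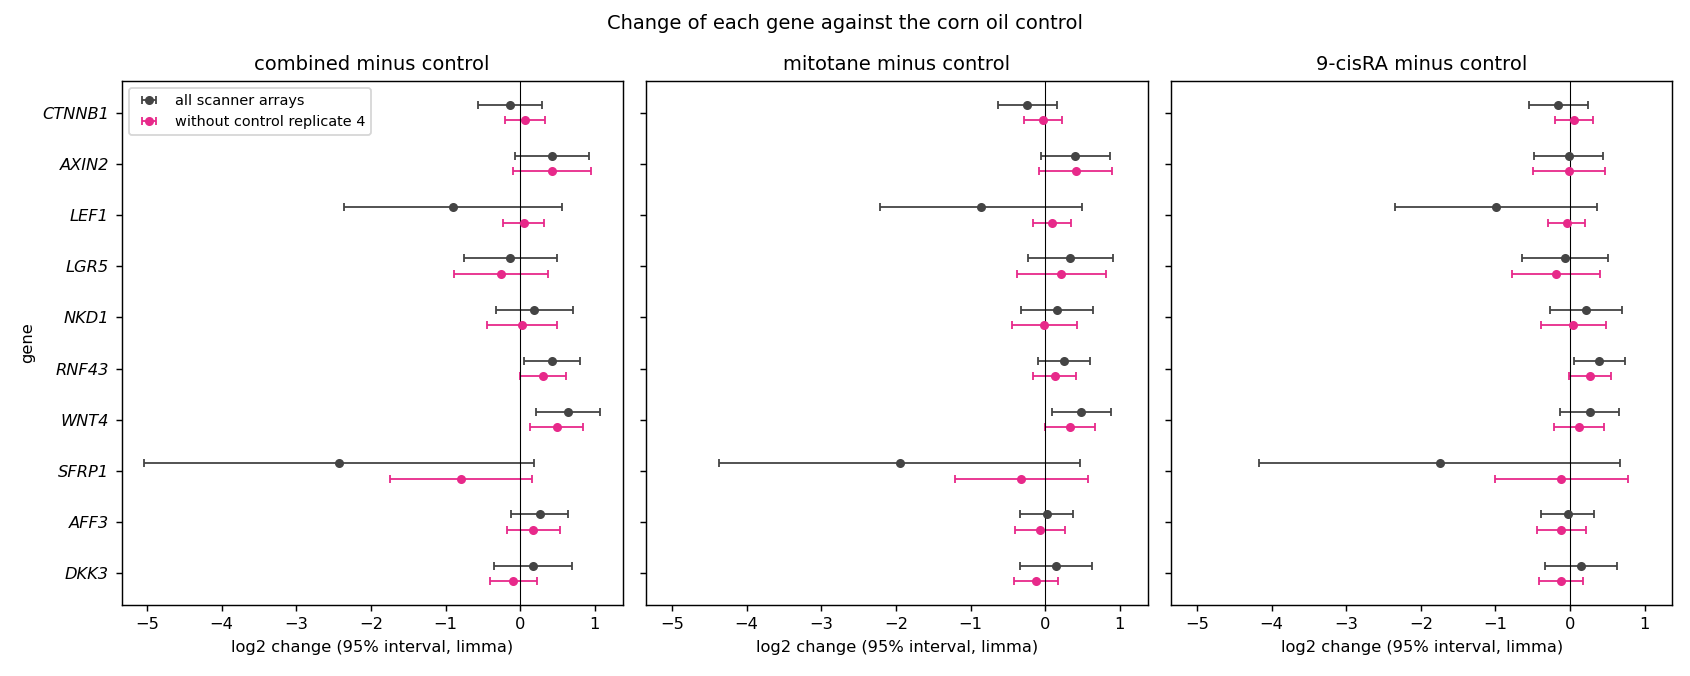
Log2 difference of each gene against control with its 95% interval, for combined, mitotane and 9-cisRA tumours, with all 15 arrays and without control replicate 4. The negative differences of LEF1 and SFRP1, down to −0.99 and −2.42, and the width of their intervals largely go with control replicate 4, while WNT4 in combined tumours is 0.64 with that array and 0.49 without it.

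WNT4 showed the clearest separation among the secreted proteins. The gene (NM_030761) encodes a Wnt ligand made in the outer adrenal cortex and, in mice, needed there for normal aldosterone production. Levels were 2.35, 2.77 and 2.54 in combined tumours, 2.22, 2.43, 2.55 and 2.40 in mitotane tumours, 2.21, 1.86, 2.51 and 2.15 in 9-cisRA tumours and 1.87, 2.17, 2.16 and 1.46 in control tumours. All combined arrays and all mitotane arrays lay above all controls, by margins of 0.18 and 0.05, while the 9-cisRA arrays overlapped them. Of all tested transcripts, 12.7% in combined and 3.56% in mitotane tumours were above all controls in this way. Means stood at 2.55 ± 0.21 in combined tumours (n = 3), 2.40 ± 0.14 in mitotane tumours, 2.18 ± 0.27 in 9-cisRA tumours and 1.92 ± 0.33 in control tumours (n = 4 each), and neighbours in this order were no further apart than the larger SD of the pair.

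WNT4 was 1.56-fold higher in combined tumours than in controls (0.64 ± 0.20, 95% interval 0.21 to 1.07, limma adjusted p = 0.237) and 1.40-fold higher in mitotane tumours (0.48 ± 0.18, 95% interval 0.09 to 0.88, adjusted p = 0.713). 9-cisRA minus control was 0.27 ± 0.18 (adjusted p = 0.744). None passed the correction over all transcripts. Control replicate 4 was the lowest of all 15 arrays for WNT4. Without it the combined difference was 0.49 ± 0.17 (95% interval 0.13 to 0.84, adjusted p = 0.190), or 1.40-fold, the mitotane difference 0.33 ± 0.16 (adjusted p = 0.616) and the 9-cisRA difference 0.11.

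Within slides, WNT4 was higher in the combined tumour than in the control on all 3 slides, by 0.48, 0.60 and 1.08. Mitotane exceeded control on all 4 slides, by 0.35, 0.26, 0.39 and 0.94, and 9-cisRA on 3 of 4, at 0.33, −0.31, 0.35 and 0.69. The slide 4 differences were again the highest of each set. For combined and mitotane tumours the positive signs follow from the lack of overlap with the controls and add no support to it. Combined minus 9-cisRA, which uses no control array, was 0.37 ± 0.20 (limma adjusted p = 0.619) and positive on all 3 slides; combined minus mitotane was 0.15.

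**Figure D4:**
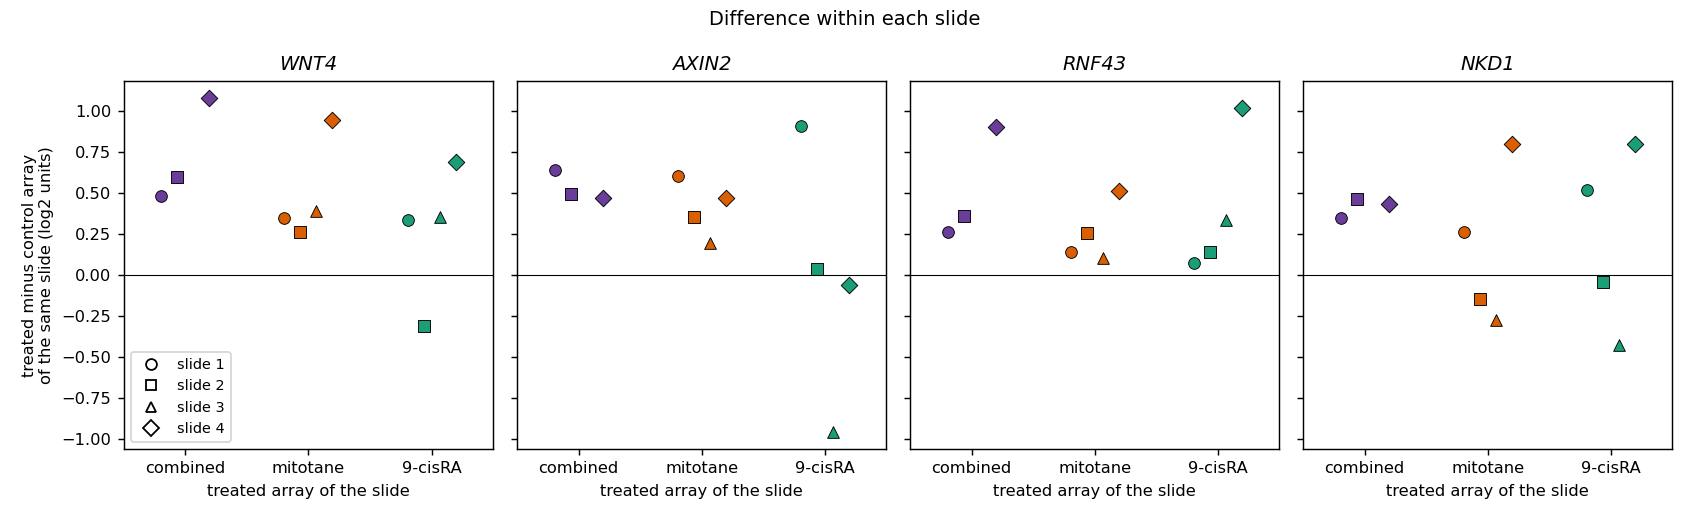
Difference of the treated array from the control array of the same slide (vertical axes, log2) for WNT4, AXIN2, RNF43 and NKD1, by slide, for combined, mitotane and 9-cisRA arrays. WNT4 in combined tumours lies at 0.48, 0.60 and 1.08. For RNF43 and WNT4 the difference on slide 4 (the one with control replicate 4) is the highest of each treated group.

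SFRP1 (NM_003012), a secreted antagonist that binds Wnt ligands and Frizzled receptors, varied most. It read −0.01, 0.13 and −1.88 in combined tumours, 0.02, −0.26, −0.14 and −0.06 in mitotane tumours, 0.68, −0.60, 0.27 and 0.04 in 9-cisRA tumours and 0.13, −0.14, 0.65 and 6.72 in control tumours. Except for combined replicate 4 and control replicate 4, all scanned arrays lay between −0.60 and 0.68. These arrays share a slide and lie at opposite ends, 8.60 apart. The SFRP1 probe was also printed 10 times per array, and its copies differed with an SD of 0.05 to 0.18; on control replicate 4 this covers 9 spots, with 1 left out as an outlier. Control replicate 4 was 90.8-fold above the mean of the other controls, rank 111 of 20216 transcripts by that difference. Combined replicate 4 was 3.84-fold below the mean of the other combined arrays, the 50th lowest of 20216.

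Combined, mitotane and 9-cisRA minus control for SFRP1 were −2.42 ± 1.22 (95% interval −5.04 to 0.19, limma adjusted p = 0.394), −1.95 ± 1.13 (adjusted p = 0.713) and −1.74 ± 1.13 (adjusted p = 0.744). With control replicate 4 left out they were −0.80 ± 0.44 (95% interval −1.75 to 0.15, adjusted p = 0.346), −0.32 ± 0.41 and −0.12 ± 0.41. With combined replicate 4 left out as well, combined minus control was −0.15. Combined replicate 3, which has no scanner file, is not part of these fits. In the authors' deposited value table it read −1.09 for SFRP1, below every control there (lowest −0.14). Mitotane tumours read below the control of their slide on all 4 slides, by as little as 0.11, and 9-cisRA tumours on 3 of 4.

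DKK3 (NM_015881), a secreted member of the Dickkopf family whose role in Wnt signalling varies with the cell type, read −0.11, −0.01 and −0.40 in combined tumours, −0.09, −0.24, −0.23 and −0.24 in mitotane tumours, −0.11, −0.01, −0.52 and −0.16 in 9-cisRA tumours and 0.07, −0.23, −0.08 and −1.14 in control tumours by its brighter probe. The groups overlapped. Control replicate 4 was 2.09-fold below the mean of the other controls, and differences from control were 0.17, 0.15 and 0.15 for combined, mitotane and 9-cisRA tumours (limma adjusted p = 0.746, 0.813 and 0.794). Without that array the differences were −0.09, −0.12 and −0.12, so all 3 directions turned on it. The dimmer DKK3 probe read −3.44, −3.46 and −3.98 in combined tumours, −3.16, −3.08, −3.12 and −3.04 in mitotane tumours, −3.06, −3.22, −3.51 and −3.66 in 9-cisRA tumours and −3.58, −3.49, −3.26 and −3.77 in control tumours. By this probe all 4 mitotane arrays lay above all controls (0.43, adjusted p = 0.708), and combined minus mitotane was −0.53 (adjusted p = 0.899). It was not well above background on combined replicate 4 and control replicate 4. By the brighter probe mitotane and control arrays overlapped, and combined minus mitotane was 0.03. By their brightest probe, 3.56% of all tested transcripts lay above all controls in mitotane tumours.

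AFF3 (NM_002285), a nuclear protein of the transcription elongation machinery that has been reported as a β-catenin target in adrenocortical carcinoma, read −0.48, −0.43 and −0.89 in combined tumours, −0.999, −0.71, −0.71 and −0.95 in mitotane tumours, −0.86, −1.05, −0.75 and −0.91 in 9-cisRA tumours and −1.01, −0.87, −0.45 and −1.12 in control tumours. Combined replicate 2 was the highest of all scanned arrays, followed by control replicate 3 and combined replicate 1, and combined replicate 4 lay with the rest. Combined minus control was 0.26 ± 0.18 (limma adjusted p = 0.528), and mitotane and 9-cisRA minus control were 0.02 (adjusted p = 0.967) and −0.03 (adjusted p = 0.945). Combined minus mitotane was 0.24 ± 0.18 and combined minus 9-cisRA 0.29 ± 0.18 (adjusted p = 0.693), and both were positive on all 3 slides. With both replicate 4 arrays left out, which was decided on after seeing the values, combined minus control was 0.32, combined minus mitotane 0.39 (adjusted p = 0.521) and combined minus 9-cisRA 0.44 (adjusted p = 0.248). The remaining 2 combined arrays then lay above all mitotane and all 9-cisRA arrays, as they did for 11.4% and 18.2% of all transcripts.

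Taking the 10 genes as a group, 6 were higher and 4 lower in combined tumours than in controls, with a median difference of 0.18, while 58.7% of all tested transcripts were higher and their median was 0.09. For mitotane 7 were higher and 3 lower with a median of 0.15, against 61.5% and 0.09 over all transcripts, and for 9-cisRA 4 were higher and 6 lower with a median of −0.02, against 53.9% and 0.03. Leaving out control replicate 4, the medians were 0.06 for combined (7 higher, 3 lower; 0.08 over all transcripts), 0.04 for mitotane (5 higher, 5 lower; 0.08 over all) and −0.03 for 9-cisRA (4 higher, 6 lower; 0.02 over all), so the medians for combined and mitotane lay above that of all transcripts with this array and below it without. Groups did not overlap for 3 of 10 genes in combined against control (AXIN2, RNF43 and WNT4, all higher in combined tumours; 12.7% of all transcripts were higher and 2.52% lower in this way), for WNT4 in mitotane against control (3.56% higher, 0.688% lower) and for none in 9-cisRA against control (1.67% higher, 0.727% lower). The AXIN2 margin was 0.01 and did not hold in the authors' deposited value table. That table also holds combined replicate 3, where RNF43 lay inside the control range, so of these genes only WNT4 separated all combined arrays from the controls there. On the scanned arrays without control replicate 4, AXIN2, RNF43 and WNT4 in combined and WNT4 in mitotane tumours were still separated. The backgrounds for combined, mitotane and 9-cisRA were then 20.2%, 7.10% and 3.75%. With both replicate 4 arrays out, the combined background was 28.3%, close to 3 of 10.

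The calls for combined tumours moved with the weight given to each array. When limma estimated a weight per array, 0.04 for control replicate 4 and 8.81 for control replicate 2, combined minus control passed the adjusted threshold for AXIN2 (0.43, adjusted p = 0.0247), RNF43 (0.29, adjusted p = 0.0244), WNT4 (0.37, adjusted p = 0.0244) and AFF3 (0.37, adjusted p = 0.0110). The same fit called 28.6% of all transcripts, against 4 of these 10. In combined minus 9-cisRA it called AFF3 alone among the 10 (0.42, adjusted p = 0.0343) and 9.91% of all transcripts.

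**Figure D5:**
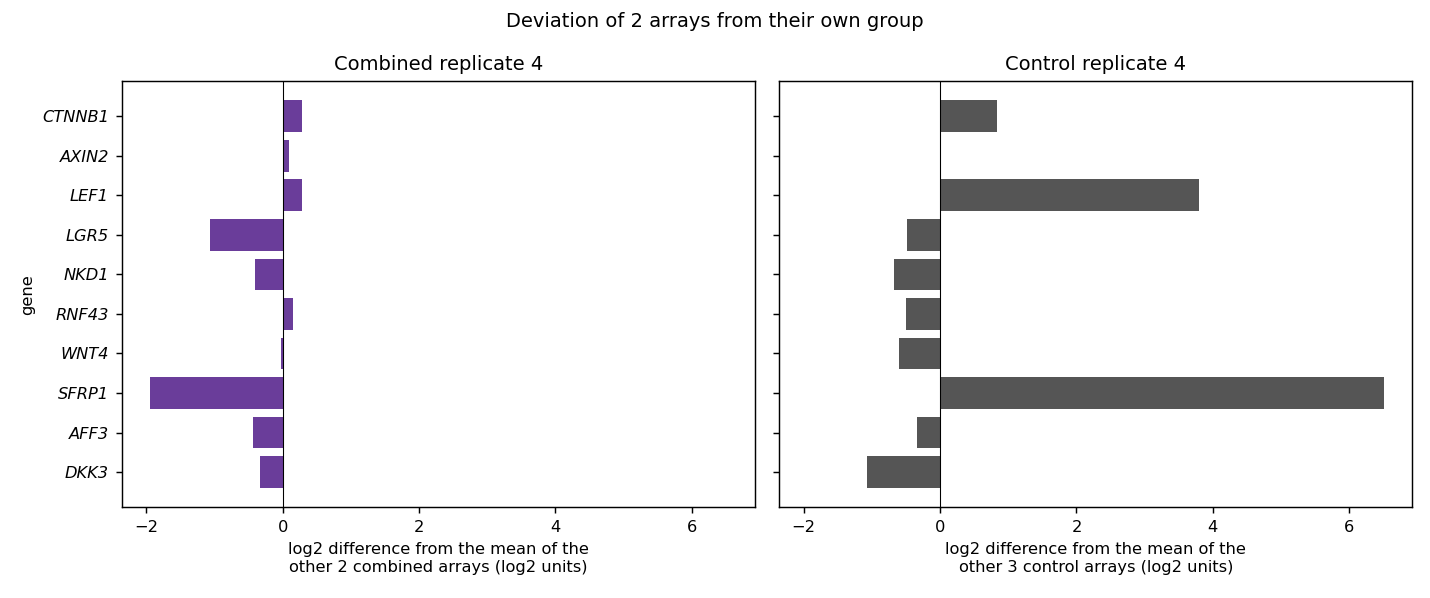
Difference of control replicate 4 from the mean of the other 3 control arrays, and of combined replicate 4 from the mean of the other 2 combined arrays, for each gene (log2). On control replicate 4, SFRP1, LEF1 and CTNNB1 lie 6.50, 3.79 and 0.83 higher and DKK3 1.06 lower; on combined replicate 4, SFRP1 and LGR5 lie 1.94 and 1.07 lower.

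Control replicate 4 lay above all 14 other arrays for SFRP1, LEF1 and CTNNB1, below all of them for NKD1, RNF43, WNT4, AFF3 and DKK3, and inside their range for AXIN2 and LGR5. Against the mean of the other controls NKD1 was 0.68, WNT4 0.61, RNF43 0.50, LGR5 0.48 and AFF3 0.34 lower, and AXIN2 differed by 0.02. The median over all tested transcripts was −0.32 on this array, the 5th and 95th percentiles were −1.19 and 2.80, and 23.8% of transcripts lay at least 1 log2 unit higher. SFRP1 and LEF1 were thus beyond the 95th percentile, and all lower genes, DKK3 included, lay between the 5th and the 95th.

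The agents were also compared with each other and for non-additivity. By the brightest probe of each, none of the 10 genes had an unadjusted p under 0.05 in combined against mitotane (4.75% of transcripts had), combined against 9-cisRA (9.47%) or mitotane against 9-cisRA (4.84%), nor in the interaction of both agents (3.71%). By limma and the same probes, the largest differences between treated groups apart from SFRP1 were LGR5 in combined minus mitotane (−0.47 ± 0.29), AXIN2 in combined minus 9-cisRA (0.44 ± 0.23, adjusted p = 0.601) and AXIN2 in mitotane minus 9-cisRA (0.42 ± 0.21). The interaction was −0.40 ± 0.39 for LGR5 and 0.27 ± 0.24 for AFF3 (adjusted p = 0.965 each), and 5 of 10 genes had a positive one, against 50.2% of transcripts. Without combined replicate 4, LGR5 in combined minus mitotane was −0.12 and its interaction −0.046, and the AFF3 interaction was 0.41. Without control replicate 4, WNT4 alone had an unadjusted p under 0.05 in combined against 9-cisRA (19% of transcripts; its adjusted p = 0.217).

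Finally, the level of CTNNB1 was set against that of the other 9 genes over the 14 arrays without control replicate 4. AXIN2 had the highest Pearson correlation, r = 0.50 (permutation p = 0.0665, adjusted over 9 relations 0.598; Spearman rho = 0.59, p = 0.029, adjusted 0.261), and r was 0.32 without combined replicate 4 and 9-cisRA replicate 1, the arrays farthest from the median of CTNNB1. Of all tested transcripts, 5.58% had a higher r with CTNNB1 over the 14 arrays than AXIN2 had. For the other 8 genes r lay between −0.33 and 0.24. After the mean of each group was subtracted, r between CTNNB1 and AXIN2 was 0.73 over the 14 arrays, 0.71 without combined replicate 4 and 9-cisRA replicate 1, and 0.57 over the 10 arrays outside the 9-cisRA group. It was −0.056 with the dimmer AXIN2 probe. For the other 8 genes this within-group r lay between −0.32 and 0.38, and it was not computed for all transcripts. These are descriptions over arrays that share slides. Single groups and slides hold 3 or 4 arrays, too few for an r of their own. With control replicate 4 included, r with CTNNB1 was 0.88 for LEF1 and 0.78 for SFRP1, values that rest on that array. Over all tested transcripts the pattern most like that of CTNNB1 was NM_007282 (r = 0.89 over 14 arrays, −0.41 over 15), followed by ENST00000370222 (0.88 and 0.97), and the least like it were NM_001171092 (−0.89 and 0.49) and NM_001268 (−0.88 and −0.97).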

How the data were processed

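Tumour RNA from 16 samples in 4 groups was hybridised to 1-colour Agilent arrays of a human design. The deposited scanner files of 15 arrays hold spot intensity (background-subtracted and detrended within the array by Agilent Feature Extraction 11.0.1, per the submitters' processing notes and the file headers) and 0 or 1 flags among other columns. Combined replicate 3 was read only from the authors' deposited value table, which holds log2 values of 16 arrays centred per probe. No source used here states how its arrays were scaled.

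Here the 75th percentile of 43118 non-control spots was subtracted from the log2 processed signal, array by array. Outlier spots were left out, spots of a probe averaged, and the brightest probe taken per identifier. Identifiers were tested where some group had them well above background on all its arrays (20216 of 29094, 69.5%). One limma fit (version 3.58.1, R 4.3.3) over 4 groups gave all comparisons, with Benjamini-Hochberg adjustment and a threshold of 0.05. The number of arrays limits the precision. The script was tested on simulated data. Correlations used 100000 permutations.

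All 10 genes were named, with every probe, and for likeness to CTNNB1 the 2 transcripts of highest and the 2 of lowest correlation. Genes and lists were chosen with earlier results of these data known. Lists of other Wnt pathway genes and of cell type markers were drawn up but not described, since 0 identifiers matched the mouse gene table used here. Gene names come from the list of RefSeq identifiers, not from the files. Samples of 1 slide share a replicate number. Over 21 same-slide pairs the correlation of deviations from group means was −0.27 to 0.37 (median 0.01), and 7 exceeded 0.1. Over 63 pairs from different slides it was −0.42 to 0.48 (median −0.02), and 18 exceeded 0.1. The main fit used the group only, and the slide was taken as a block in an alternative. The normexp alternative used median spot signals, since mean signals were not among the columns used here. Alternatives covered scaling, background, filter, probes, slide, weights, the value table and leaving out arrays.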

Additional observations from a re-analysis of the deposited data

Results flagged for a closer look

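LEF1 in control tumours was marked because 1 array lay far from the others: control replicate 4 read 5.67 and the next control 2.02. SFRP1 was marked for the same array, which read 6.72 against 0.65 in the nearest control. DKK3 in mitotane tumours was marked because replicate 1 read −0.092 while the nearest of the other arrays read −0.23 and the lowest −0.24. Of 36 sets of 4 arrays, 3 were marked, and chance marks about 5% of such sets, here 1.8.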

How the results depend on the processing

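Over the main results and their alternatives, the 10 genes kept their direction and their side of the threshold in 1038 instances, turned sign in 55 and passed the threshold anew in 5. Part of the 1038 had a direction fixed in advance. Leaving out an array outside a comparison, or fitting its groups alone, cannot change the difference, only its p-value. The slide block also left differences between groups of 4 arrays unchanged (CTNNB1 in mitotane minus control, −0.24). AXIN2, RNF43 and WNT4 in combined minus control stayed positive under all alternatives run, between 0.06 (the other AXIN2 probe) and 0.54, 0.20 and 0.51, and 0.37 and 0.74. Every sign turn concerned a difference that was not called. With estimated array weights, the number of transcripts called was 5788 for combined minus control, 3 for mitotane minus control, 4 for 9-cisRA minus control, 103 for combined minus mitotane and 2003 for combined minus 9-cisRA. The cause of these and the following differences was not tested. Weights also turned CTNNB1 (0.057) and LGR5 (0.11) in combined minus control, CTNNB1 (0.031), LEF1 (0.12), AFF3 (−0.00053) and DKK3 (−0.011) in mitotane minus control, and CTNNB1 (0.095), AXIN2 (0.038), LEF1 (0.021) and SFRP1 (0.10) in 9-cisRA minus control. In the authors' deposited value table without control replicate 4, 1 transcript was called in combined minus mitotane, and signs turned for CTNNB1 (0.076), NKD1 (−0.029) and DKK3 (−0.22) in combined, LEF1 (0.067), NKD1 (−0.031), AFF3 (−0.084) and DKK3 (−0.14) in mitotane, and CTNNB1 (0.055) and DKK3 (−0.12) in 9-cisRA minus control. Without both replicate 4 arrays of control and combined, a choice made after seeing the data, signs turned for LGR5 in combined (0.10), LEF1 (0.087), NKD1 (−0.011), AFF3 (−0.064) and DKK3 (−0.12) in mitotane and CTNNB1 (0.053) and DKK3 (−0.12) in 9-cisRA minus control, and for the LGR5 interaction (0.075). AXIN2 in 9-cisRA minus control became 0.0051 with array medians, 0.0063 in the whole value table, 0.15 as a mean of probes and 0.31 by its other probe, which also gave −0.25 in combined minus 9-cisRA and −0.14 in mitotane minus 9-cisRA. LGR5 in 9-cisRA minus control became 0.022 with normexp on median spot signals, also added after seeing the data, and 0.028 with quantile normalization, and DKK3 in combined minus control −0.10 by its other probe. Leaving out 1 array at a time gave 0 to 1 calls in combined minus mitotane and 0 to 8 in mitotane minus 9-cisRA, the upper values without mitotane replicate 2. In those runs combined minus control spanned −0.24 to 0.068 for CTNNB1, −1.24 to 0.044 for LEF1, −0.45 to 0.22 for LGR5 and −0.094 to 0.31 for DKK3. Mitotane minus control spanned −1.20 to 0.087 for LEF1, −0.011 to 0.38 for NKD1, −0.064 to 0.16 for AFF3 and −0.12 to 0.28 for DKK3. 9-cisRA minus control spanned −0.26 to 0.053 for CTNNB1, −0.23 to 0.18 for AXIN2, −0.21 to 0.067 for LGR5, −0.12 to 0.11 for AFF3 and −0.12 to 0.28 for DKK3. The turns of CTNNB1, LEF1, NKD1 and DKK3 came without control replicate 4, that of LGR5 in combined tumours without combined replicate 4, those of AXIN2 and LGR5 in 9-cisRA tumours without replicate 3 of control or of 9-cisRA, and those of AFF3 without any of several arrays. With the slide as a replicate block, 0 transcripts were called in any comparison, and WNT4 in combined minus control was 0.72 (limma adjusted p = 0.337). Signal over background limits only the dimmer DKK3 probe among the 12.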

Other observations

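Combined replicate 3 was read from the authors' deposited value table, in which each probe is centred, so its values can be set only against other arrays of that table. AXIN2 read 0.22 on it, above the control arrays, which reached 0.03; combined replicate 1 read 0.0024 there, so AXIN2 did not separate all combined arrays from the controls either. WNT4 read 0.02, between the other combined arrays (0.08 to 0.50) and the highest control (−0.07). RNF43 read −0.14, below the other combined arrays (0.06 to 0.27) and inside the control range (−0.70 to 0.01), so RNF43 did not separate them. SFRP1 read −1.09, below every control (−0.14 to 6.64) and between combined replicate 4 and the other combined arrays (−1.90 to 0.11). The 6 other genes lay inside the control range, DKK3 (−0.37) below the other combined arrays.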
